A study of Mus musculus with 4 samples.

Results

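The HIN-200 family of mice is a group of proteins with a DNA-binding HIN domain, several of which sense DNA that reaches the cytosol. Its 10 members described here, Aim2, Ifi202b, Ifi203, Ifi204, Ifi205, Ifi207, Ifi209, Ifi211, Ifi213 and Mndal, were taken by gene symbol from the 31053 genes of the count tables, and each symbol matched 1 gene. Bone marrow mononuclear cells of 2 TLR9-/- mice and 2 wildtype (WT) mice were profiled by single-cell RNA sequencing that reads each transcript at its 5′ end, and each mouse gave 1 library. Both genotypes were C57BL/6 mice provided by 1 laboratory, were not treated, and had been bred in separate cages. The TLR9-/- mice lacked the receptor in every cell, so that a difference in 1 cell type need not come from the loss of TLR9 in that cell. The age and sex of these 4 mice were not given in the sources used here. The 2 TLR9-/- and 2 WT libraries are called TLR9-/- 1, TLR9-/- 2, WT 1 and WT 2 after the numbers in their labels. The cells came from 2 experiments with 1 mouse of each genotype in each, and the labels do not say which libraries belong to which experiment. The transcript counts are unique molecular identifiers (UMIs), each of which marks 1 captured RNA molecule.

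TLR9 and the HIN-200 proteins sense DNA in different parts of the cell. TLR9 recognises DNA rich in unmethylated CpG within endosomes and signals through MyD88. Aim2 binds double-stranded DNA in the cytosol and, through the adaptor Pycard (ASC), activates caspase-1 in the inflammasome, which matures interleukin 1β and interleukin 18. Ifi204, often taken as the mouse counterpart of human IFI16, acts upstream of the adaptor Sting, which also receives the signal of cGAS and drives type I interferon. Ifi202b carries HIN domains without the pyrin domain of the other sensors and can hold Aim2 in check. Many genes of the family are themselves induced by interferon, and the comparison asked how this second system of DNA sensing was expressed in each bone marrow cell type beside the lost endosomal receptor.

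In the 39167 cells kept of 40545, the libraries TLR9-/- 1, TLR9-/- 2, WT 1 and WT 2 held 50204578, 63958243, 31210188 and 41384657 UMIs, and WT 1 had the lowest median of 1759 UMIs per cell. Between 112 and 185 cell barcodes were shared by a pair of libraries. Tlr9, the targeted gene, was read in 41 and 48 UMIs of TLR9-/- cells against 120 and 97 UMIs of WT cells. On the log2 scale the fitted change was −1.98, with a standard error of 0.35 and an adjusted p of 0.117 in edgeR's quasi-likelihood test (0.000937 in DESeq2). Cells were grouped into 13 classes with at least 20 cells in every library, each resembling the cell type whose markers led its clusters, with 3 to 10 markers among the 10 leading genes of a cluster. Conventional dendritic cells were 1 cluster of 1039 cells, with 4 conventional and 3 plasmacytoid markers among its 10 leading genes. In a finer clustering (Leiden resolution 2) a cluster of 545 cells led by Cd209a kept the conventional name. Another of 504 cells led by AC140186.1, Runx2 and Flt3, leading genes of the 1039 cells too, was named plasmacytoid. The conventional class may thus include plasmacytoid-like cells. Levels are CPM, the UMIs of a gene per 1000000 summed UMIs of its class and library after TMM scaling, and an SD over 4 libraries spans both genotypes. Log2 fold changes compare TLR9-/- with WT, adjusted p values come from edgeR's two-sided quasi-likelihood test with Benjamini-Hochberg adjustment over all genes tested, and an adjusted p under 0.05 passed.

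The members lie together on chromosome 1 of GRCm38, within 681 kb from 173350879 to 174031810. In chromosomal order they are Aim2 (173350879 to 173466040), Ifi213 (173566283 to 173599274), Ifi209 (173630917 to 173647928), Ifi207 (173723427 to 173741747), Ifi204 (173747293 to 173766943), Mndal (173849126 to 173942491), Ifi211 (173896345 to 173913046), Ifi203 (173920407 to 173942672), Ifi202b (173962568 to 173982744) and Ifi205 (174011998 to 174031810). Aim2 and Ifi209 are read from the plus strand and the other members from the minus strand. The annotated span of Mndal contains Ifi211 and overlaps Ifi203 on the same strand, and 37 exonic bases belong to both Mndal and Ifi203. Ifi206, Ifi214 and Ifi208, which are related genes outside the list, lie among the members.

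The members arose by duplication, and their promoters fall into groups of near copies. RefSeq windows of 250 bases before and 50 bases after a transcript start were on hand for 9 of the 10 members, in 11 windows. They are printed so that near-identical windows can be set beside the levels of their genes in the cell classes. Capitals mark matches to the interferon response element, searched as GAAANNGAAA on both strands, and coordinates are those of GRCm38.p6. The myeloid members Ifi207 (chr1:173741760-173742059), Ifi211 (chr1:173912997-173913296) and Ifi205 (chr1:174031706-174032005), all on the minus strand, had these windows:
Ifi207: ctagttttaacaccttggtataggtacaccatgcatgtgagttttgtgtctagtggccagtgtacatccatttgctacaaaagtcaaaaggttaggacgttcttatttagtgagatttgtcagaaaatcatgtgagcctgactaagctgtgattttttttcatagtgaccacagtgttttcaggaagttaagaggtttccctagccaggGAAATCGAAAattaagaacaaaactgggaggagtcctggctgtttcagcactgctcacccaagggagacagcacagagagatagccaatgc
Ifi211: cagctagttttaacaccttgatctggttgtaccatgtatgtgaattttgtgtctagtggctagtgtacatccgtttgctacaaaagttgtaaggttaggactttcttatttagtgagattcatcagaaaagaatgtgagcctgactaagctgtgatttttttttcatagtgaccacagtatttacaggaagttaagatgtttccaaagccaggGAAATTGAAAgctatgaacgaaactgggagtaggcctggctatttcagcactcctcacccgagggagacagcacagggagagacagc
Ifi205: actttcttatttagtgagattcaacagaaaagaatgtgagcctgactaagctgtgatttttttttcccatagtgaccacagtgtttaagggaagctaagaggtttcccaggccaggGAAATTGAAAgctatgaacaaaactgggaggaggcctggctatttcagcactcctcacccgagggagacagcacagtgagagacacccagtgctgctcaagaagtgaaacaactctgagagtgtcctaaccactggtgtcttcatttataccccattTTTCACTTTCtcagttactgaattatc
Mndal (chr1:173880138-173880437) and Ifi203 (chr1:173942443-173942742), on the minus strand and read across most classes, had these windows:
Mndal: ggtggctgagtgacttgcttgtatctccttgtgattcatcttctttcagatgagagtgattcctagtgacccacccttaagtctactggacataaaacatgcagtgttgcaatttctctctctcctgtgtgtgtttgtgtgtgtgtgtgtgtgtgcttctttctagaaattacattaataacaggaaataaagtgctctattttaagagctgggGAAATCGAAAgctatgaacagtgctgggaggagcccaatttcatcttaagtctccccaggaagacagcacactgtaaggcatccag
Ifi203: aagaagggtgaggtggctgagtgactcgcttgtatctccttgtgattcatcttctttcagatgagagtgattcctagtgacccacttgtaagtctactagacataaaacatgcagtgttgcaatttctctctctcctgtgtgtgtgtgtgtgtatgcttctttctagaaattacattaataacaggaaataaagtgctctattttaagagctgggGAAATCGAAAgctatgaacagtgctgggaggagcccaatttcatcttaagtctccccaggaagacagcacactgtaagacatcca
Ifi213 (chr1:173599223-173599522, minus strand), which was highest in T cells, had this window:
Ifi213: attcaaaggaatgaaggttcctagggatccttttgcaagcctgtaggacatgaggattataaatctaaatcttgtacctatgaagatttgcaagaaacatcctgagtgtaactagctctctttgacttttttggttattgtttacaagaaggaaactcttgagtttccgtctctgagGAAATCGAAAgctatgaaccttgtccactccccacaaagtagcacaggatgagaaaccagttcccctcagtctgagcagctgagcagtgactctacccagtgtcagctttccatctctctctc

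The interferon response element is the DNA site bound by the transcription factors that carry the interferon signal. It was matched in 7 of the 11 member windows, from 6 of the 9 members, while 3.44% of all 32851 promoter windows held a match. All 6 of these members had a match that began between 134 and 35 bases before the start. In the windows of Ifi207, Ifi211, Mndal and Ifi203 printed above the match began 41, 37, 36 and 35 bases before it. Ifi205 also held a match that began 23 bases after the start. The windows of Aim2, Ifi202b and Ifi209 held no match to these letters. The window of Ifi209 was 96.0% identical to that of its neighbour Ifi214 over 299 aligned bases, and the base of Ifi209 that faces the matched element of Ifi214 differed at 1 position, G172T, counted from 1 at the first base of the Ifi214 window with the base of Ifi214 first. The gamma-activated site, searched as TTCNNNGAA, was matched in 1 member window, that of Ifi202b, against 8.30% of all windows. A match is a description of these windows and not a measured binding site.

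**Figure D1:**
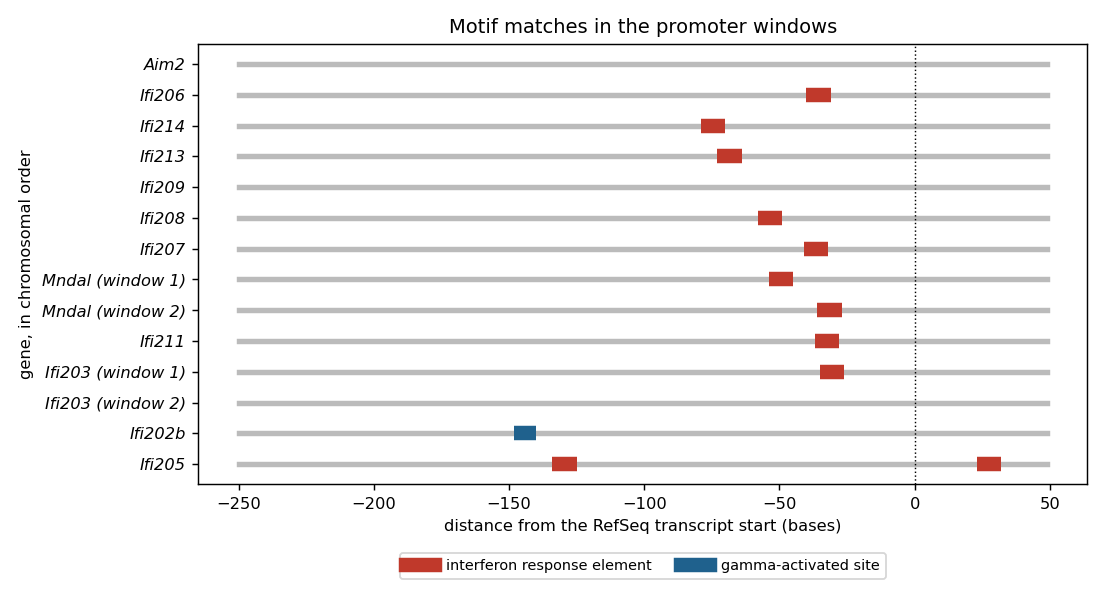
Each grey bar is 1 promoter window of 300 bases, drawn by its distance in bases from the RefSeq transcript start, for the members and their neighbours Ifi206, Ifi214 and Ifi208. Red blocks mark interferon response element matches, found in 7 of 11 member windows and in all 3 neighbour windows, and the blue block marks the 1 gamma-activated site, in Ifi202b.

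Aim2, the inflammasome sensor, was read in all 13 classes. It was highest in conventional dendritic cells at 40.03 ± 7.27 CPM (SD, n = 4 libraries), where TLR9-/- cells had 39.3 and 34.0 CPM against 50.4 and 36.3 CPM in WT cells. Plasmacytoid dendritic cells (39.3 ± 2.67 CPM), more mature B cells (38.9 CPM), basophils or mast cells (35.9 CPM) and monocyte lineage cells (35.7 ± 1.59 CPM) followed, and the libraries of neighbours in this order overlapped. Erythroid cells (6.19 CPM) and neutrophils (3.89 ± 1.20 CPM) had the lowest levels. The partners of Aim2 had peaks of their own. Pycard, the inflammasome adaptor, was also highest in conventional dendritic cells (455 ± 45.2 CPM) and in the monocyte lineage (449 ± 22.5 CPM). Casp1, the caspase that Aim2 activates, was highest in the monocyte lineage (39.3 ± 3.32 CPM). Il1b, which encodes a cytokine matured by that caspase, was highest in neutrophils, the class in which Aim2 was lowest, at 76.2 CPM with an SD of 84.4 over the libraries.

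Mndal, Ifi203 and Ifi209 were read broadly. Mndal was highest in more mature B cells, where TLR9-/- cells had 282 and 232 CPM against 292 and 203 CPM in WT cells, and then in conventional dendritic cells (213 ± 25.0 CPM). Ifi203 had the same leading pair, with 250 ± 50.3 CPM in conventional dendritic cells and 244 ± 33.5 CPM in more mature B cells, and the libraries of these 2 classes overlapped. Over the 52 sums of 13 classes and 4 libraries the log2 levels of Mndal and Ifi203 had a Pearson r of 0.97. This was the closest pair among the members, and the sums share their libraries and depths. The printed windows of the pair were 97.6% identical over 289 aligned bases. Ifi209 differed from them in its order, with B-cell precursors at 136 ± 45.9 CPM and more mature B cells at 136 ± 24.1 CPM in the lead. All 3 genes were lowest in neutrophils, at 5.37, 4.75 and 2.87 CPM, and next lowest in erythroid cells.

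Ifi204, Ifi207, Ifi211 and Ifi205 were myeloid, with 85.0%, 77.3%, 85.2% and 85.4% of their UMIs in monocyte lineage, neutrophil, granulocyte precursor and conventional dendritic cells. Ifi204, the sensor upstream of Sting, reached 65.2 ± 25.6 CPM in the monocyte lineage, where TLR9-/- cells had 38.3 and 55.8 CPM against 99.0 and 67.5 CPM in WT cells. No library of another class reached the lowest of these values, and B-cell precursors had 0.409 ± 0.257 CPM, from 10 UMIs in 4 libraries. That was 159-fold below the monocyte lineage. Ifi211 was likewise highest in the monocyte lineage (56.3 ± 15.3 CPM) with no overlap with the next class, conventional dendritic cells (23.3 ± 5.27 CPM). Ifi207 extended further into dendritic cells, with 64.6 ± 20.7 CPM in the monocyte lineage, 43.3 ± 21.6 CPM in conventional and 31.0 ± 24.3 CPM in plasmacytoid dendritic cells. Ifi205 had its peak outside monocytes, at 30.2 ± 14.5 CPM in conventional dendritic cells against 7.69 ± 6.60 CPM in the monocyte lineage. The lowest dendritic library, at 18.2 CPM, was just above the highest monocyte library, at 17.5 CPM. The windows of Ifi207 and Ifi211 were 88.4% identical over 294 aligned bases, and those of Ifi211 and Ifi205 were 94.5% identical over 199. The 52 log2 levels of these 2 pairs had a Pearson r of 0.66 each, as had those of Ifi209 and Ifi214. Some pairs with unlike windows had higher values. Mndal and Ifi209 had an r of 0.90 with 15.3% of the printed Mndal window identical, and Aim2 and Mndal 0.84 with 6%. Whether alike windows go with alike levels was not tested. Of the members beside Ifi204 on the chromosome, Ifi207 had an r of 0.76 with it and Mndal an r of 0.10.

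Ifi213 was read in lymphoid cells and in part of the monocytes, with 49.6% of its UMIs in B-cell precursors, more mature B, T and natural killer cells and 34.8% in the 4 myeloid classes named above. By class it was highest in T cells, where TLR9-/- cells had 52.0 and 36.7 CPM against 91.8 and 35.3 CPM in WT cells, and second in more mature B cells (33.1 ± 16.1 CPM). Its mean level was lowest in granulocyte precursors (0.743 CPM), erythroid cells (0.910 CPM) and neutrophils (0.712 CPM). Its promoter window was 98.9% identical over 285 aligned bases to that of its neighbour Ifi208, whose level was also highest in T cells at 40.5 ± 15.9 CPM. Ifi202b had 0 UMIs in every library. A count of 0 allows, at 3 counts per library, a level of up to between 0.0469 and 0.0961 CPM over all cells. C57BL/6 mice are known for an Ifi202b that is barely expressed, unlike several other strains. Both genotypes had the same count of 0 here, and no other strain was measured.

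**Figure D2:**
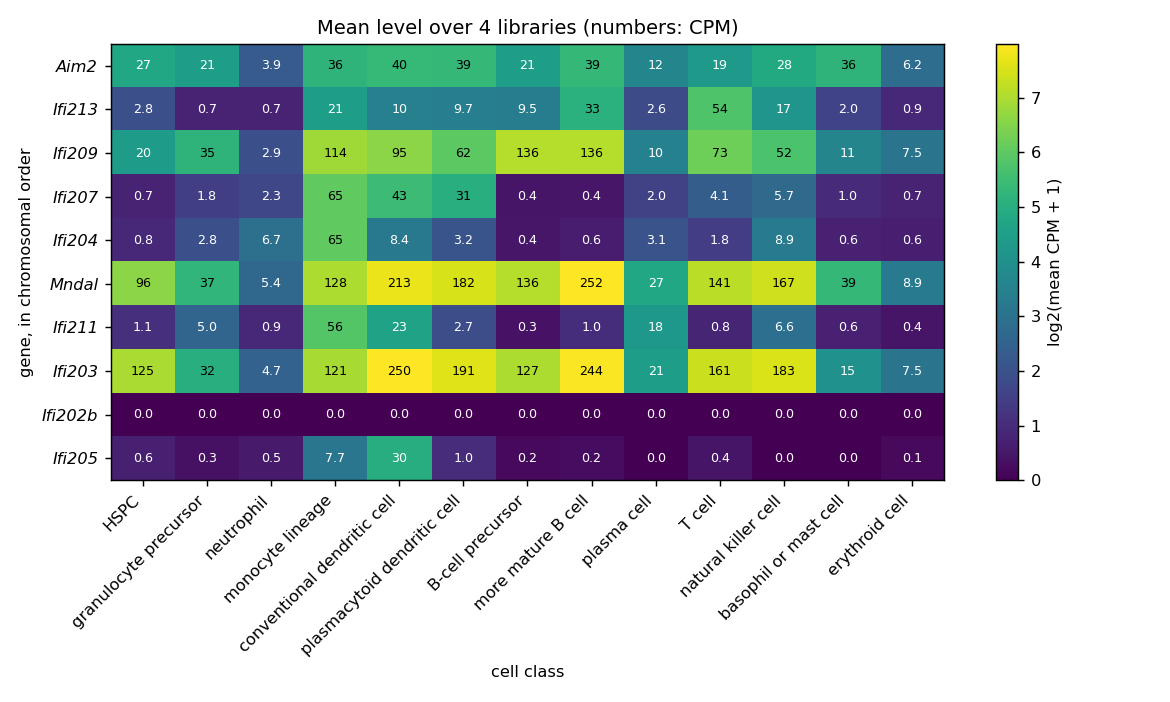
Each tile is the mean level over 4 libraries of 1 gene (rows, in chromosomal order) in 1 cell class (columns), coloured by log2 of the mean CPM plus 1 with the CPM printed in it. Along a row, Ifi204, Ifi207 and Ifi211 are brightest in the monocyte lineage, Ifi205 in conventional dendritic cells and Ifi213 in T cells, and Ifi202b is 0 in all 13 classes.

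The levels also varied among the clusters that make up a class. The monocyte lineage held 1 cluster of 2206 cells led by Clec4a3, Apoe and Fn1 and 1 cluster of 1911 cells led by Fn1, F13a1 and C1galt1c1. Levels of clusters are CPM of the cluster's own UMIs, without TMM scaling. Ifi204 stood at 122 ± 41.9 CPM in the first cluster and 39.7 ± 14.3 CPM in the second. Ifi213 stood at 59.3 ± 40.2 CPM against 4.29 ± 3.89 CPM, and Ifi205 at 18.3 ± 14.2 CPM against 2.74 ± 2.70 CPM. Aim2 was closer, at 45.8 ± 2.37 CPM against 31.3 ± 0.604 CPM. The Clec4a3 cluster made up 46.0% and 57.9% of the TLR9-/- monocyte lineage cells and 57.4% and 57.7% of the WT ones, so that TLR9-/- 1 had the smallest share of the cells in which these members were highest.

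Neutrophils held Ifi204 in 1 cluster. The cluster led by Retnlg, Mmp8 and Il1b had 41.3 ± 14.8 CPM of Ifi204. The clusters led by Ngp and Camp, which encode proteins of the specific granules, and by Ly6g had 1.40 ± 1.04 CPM and 0.805 ± 0.594 CPM. The Retnlg cluster was 49.7% and 42.8% of the TLR9-/- neutrophils and 28.3% and 45.4% of the WT ones, lowest in WT 1. Among B-cell precursors, the cluster led by Nrgn and Igll1 had the lowest Ifi209 (27.3 ± 12.5 CPM) and the cluster led by Rag1, the recombinase of antigen receptor genes, the highest (270 ± 69.4 CPM). These clusters were defined on the same cells, and the differences between them are descriptions.

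No member passed the test between TLR9-/- and WT cells. Over all cells 9 members were tested by edgeR and 0 passed, none with an unadjusted p under 0.05, while 0.268% of all 14194 genes passed. In the 13 classes the members entered 65 tests, of which 0 passed and 3 had an unadjusted p under 0.05. Over all genes an unadjusted p under 0.05 was found in 17.1% of the tests over all cells and in 6.83% of those in the classes. The 3 were Ifi204 and Ifi205 in the monocyte lineage and Ifi207 in conventional dendritic cells. DESeq2 called 0 of the 9 and 0 of the 65 tests. With the library number as a block, 3 of the 65 member tests in classes passed in edgeR, beside 1980 of the 105387 tests of all genes. The member tests that passed were those of Ifi204 (adjusted p = 0.0276) and Ifi205 (0.0483) in the monocyte lineage and of Ifi213 in B-cell precursors (0.00349). The labels do not tie these numbers to the experiments. Of all genes tested, 0.58% passed in B-cell precursors, 0.522% in granulocyte precursors, 0.461% in the monocyte lineage, 0.424% in neutrophils, 0.306% in plasmacytoid dendritic cells, 0.225% in more mature B cells, 0.211% in conventional dendritic cells, 0.177% in HSPC (hematopoietic stem and progenitor cells), 0.155% in basophils or mast cells, 0.0879% in T cells, 0.0835% in natural killer cells, 0.0608% in erythroid cells and 0% in plasma cells, where no member had enough UMIs for a test. Ifi202b was tested nowhere. The smallest p that an exact permutation test allows for 2 libraries per genotype is 0.33, so that the tests given are those of models fitted across all genes.

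The monocyte lineage held the lowest adjusted p values of the members. All 9 members tested had a lower fitted level in TLR9-/- cells, with a median log2 fold change of −0.44 against −0.02 for all genes tested. Ifi204, the sensor upstream of Sting, averaged 47.1 ± 12.4 CPM over the TLR9-/- libraries and 83.2 ± 22.3 CPM over the WT libraries (SD, n = 2 each). The difference was −0.82 on the log2 scale (standard error 0.24, with adjusted p = 0.401 by edgeR's quasi-likelihood test), and the libraries of the genotypes did not overlap. It was −0.50 without WT 1 and −1.07 without WT 2. Ifi205 had 3.49 and 4.23 CPM in TLR9-/- cells against 17.5 and 5.54 CPM in WT cells. Its value of −1.58 on the log2 scale (standard error 0.47, adjusted p = 0.406 by the same edgeR test) was −0.50 without WT 1. Aim2 had 34.2 and 34.9 CPM in TLR9-/- cells against 37.9 and 35.8 CPM in WT cells, a log2 fold change of −0.09 (standard error 0.16). For the other 6 members the log2 fold change lay between −0.98 (Ifi213) and −0.17 (Mndal). Besides Ifi204 and Ifi205, the libraries of the genotypes did not overlap for Aim2 and for Ifi211, whose values were 46.0 and 49.6 CPM in TLR9-/- cells against 79.0 and 50.5 CPM in WT cells. Of all genes tested in the monocyte lineage, 37.4% had libraries that did not overlap, against 4 of the 9 members.

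In the other classes the members lay on both sides of WT. In granulocyte precursors 6 of 7 members tested had a fitted level above that of WT cells (median log2 fold change 0.13), and in neutrophils 4 of 6 (0.15). The counts were 2 of 4 in basophils or mast cells (median 0.04) and 1 of 4 in HSPC (−0.13). WT 1 was still the highest library for 6 of the 7 members in granulocyte precursors and for 3 of the 6 in neutrophils. In granulocyte precursors the libraries of the genotypes overlapped for each member tested. In erythroid cells 0 of 4 had a level above that of WT cells (median −0.90), and WT 1 was the highest library for all 4. In conventional dendritic cells 8 members were tested, with a median log2 fold change of −0.10, and Ifi207 was the member whose libraries did not overlap, at 29.9 and 32.6 CPM in TLR9-/- cells against 75.6 and 35.2 CPM in WT cells. In plasmacytoid dendritic cells, a cell type known for TLR9 and for interferon, 4 of 5 members tested had a fitted level above WT. The highest log2 fold change there was 0.16 (Ifi209), and WT 1 was the highest library for 4 of the 5. Of 5 members tested in more mature B cells, Aim2 had the highest log2 fold change of 0.27 (standard error 0.24), from 46.5 and 38.5 CPM in TLR9-/- cells and 39.8 and 30.7 CPM in WT cells. In B-cell precursors all 5 members tested had a lower fitted level in TLR9-/- cells, with a median of −0.35, but WT 2 lay among or below the TLR9-/- libraries for each of them. In T cells Mndal had 138 and 118 CPM in TLR9-/- cells against 159 and 151 CPM in WT cells, without overlap. Aim2 had 23.7 and 21.7 CPM against 20.9 and 9.62 CPM, likewise without overlap and in the other direction. These Aim2 values rest on 67 UMIs in the 4 libraries together. The difference of Ifi213 in T cells was −0.59 on the log2 scale (standard error 0.38). None of these passed the test. In natural killer cells 3 members were tested, with a median of −0.50, and the libraries of Ifi203 did not overlap, with 140 and 156 CPM in TLR9-/- cells against 236 and 199.7 CPM in WT cells. Those values rest on between 23 and 82 UMIs of Ifi203 per library. Libraries did not overlap for 1 of 8 members in conventional dendritic cells, 2 of 5 in T cells, 1 of 3 in natural killer cells and 2 of 6 in neutrophils. The shares of all genes tested were 35.9%, 35.1%, 34.7% and 34.6% in these classes.

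Over all cells, 7 of the 9 members tested had a lower fitted level in TLR9-/- libraries, and the lowest adjusted p in edgeR's quasi-likelihood test was 0.556. Ifi213 had the lowest log2 fold change, −0.91 (standard error 0.73), from 336 and 358 UMIs in TLR9-/- cells against 610 and 150 in WT cells. The WT libraries lay on both sides of the TLR9-/- libraries. Aim2 had a log2 fold change of 0.14 and Ifi211 of 0.21. The others lay between −0.46 (Ifi209) and −0.01 (Ifi207). In whole marrow, fewer cells of a type and less RNA per cell cannot be told apart, and the shares of the classes differed between the libraries, with monocyte lineage cells at 13.4% and 14.5% of TLR9-/- cells against 7.17% and 6.96% of WT cells. When every library was given the mean class shares of the WT libraries, the log2 ratio of Ifi204 moved from −0.18 to −0.64, that of Ifi211 from 0.21 to −0.36, that of Ifi207 from −0.01 to −0.40 and that of Ifi205 from −0.35 to −0.77. For Aim2 it moved from 0.14 to 0.02 and for Ifi203 from −0.21 to −0.06. The ratios are of mean CPM without TMM scaling and have no test.

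**Figure D3:**
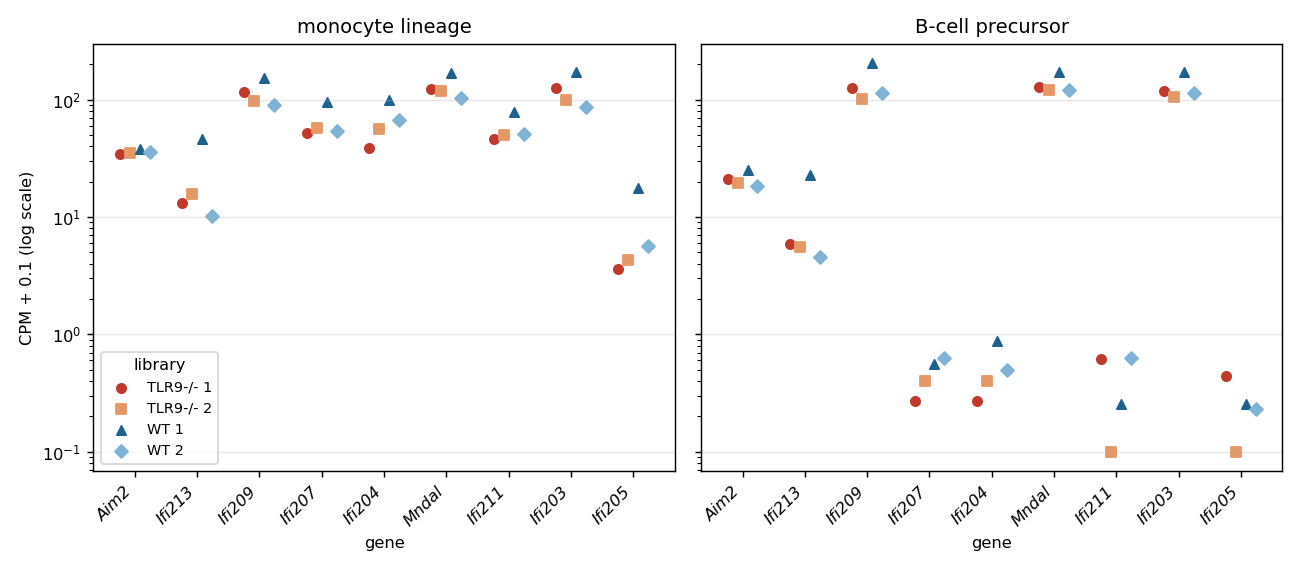
Points are the CPM of the 9 members with UMIs in each of the 4 libraries, on a log scale after adding 0.1, in the monocyte lineage (left) and B-cell precursors (right). WT 1, the dark blue triangles, is the highest library for all 9 members on the left, and Ifi204, Ifi205, Ifi207 and Ifi211 lie below 1 CPM on the right.

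The 2 WT libraries stood further apart in these genes than the TLR9-/- libraries. In the 65 tests of members in classes, WT 1 was the highest of the 4 libraries in 52 (80.0%) and WT 2 in 0. TLR9-/- 1 was the highest in 12 and TLR9-/- 2 in 1, so that in both genotypes the library numbered 1 was more often the highest. Over all genes tested in the same classes WT 1 was the highest in 25.3% and WT 2 in 29.8%. TLR9-/- 1 and TLR9-/- 2 were the highest in 23268 and 24128 of these 105387 tests. The summed level of the 10 members was highest in WT 1 in each of the 13 classes, at between 1.15 and 3.20 times that of WT 2. In B-cell precursors Ifi213 had 22.5 CPM in WT 1 against 4.46 CPM in WT 2, and 5.83 and 5.41 CPM in the TLR9-/- libraries. Ifi207 in plasmacytoid dendritic cells ranged from 64.2 CPM in WT 1, from 80 UMIs, to 5.73 CPM in WT 2, from 5 UMIs, with both TLR9-/- libraries between them at 26.9 and 27.4 CPM. In erythroid cells Ifi209 had 18.8 CPM in WT 1, against between 3.26 and 4.51 CPM in the other 3 libraries.

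Interferon-stimulated genes outside the cluster were, like the members, highest in WT 1, but they differed from the members between the 2 TLR9-/- libraries. Of 52 such genes listed, 51 were in the table, among them Isg15, Mx1 and Oas1a. Their summed level was highest in WT 1 in all 13 classes, at between 1.22 and 3.42 times that of WT 2. In the monocyte lineage it was 5937 and 7611 CPM in the TLR9-/- libraries, 11032 CPM in WT 1 and 6378 CPM in WT 2. Single genes of the list were highest in WT 1 in 326 of their 451 class tests (72.3%). They were highest in TLR9-/- 1 in 20 and in TLR9-/- 2 in 57, whereas the members were highest there in 12 and 1 of their 65 tests. The part of the interferon-stimulated genes in the levels of the members was not tested. Neither was the part of the depth of WT 1, the library with the fewest UMIs.

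**Figure D4:**
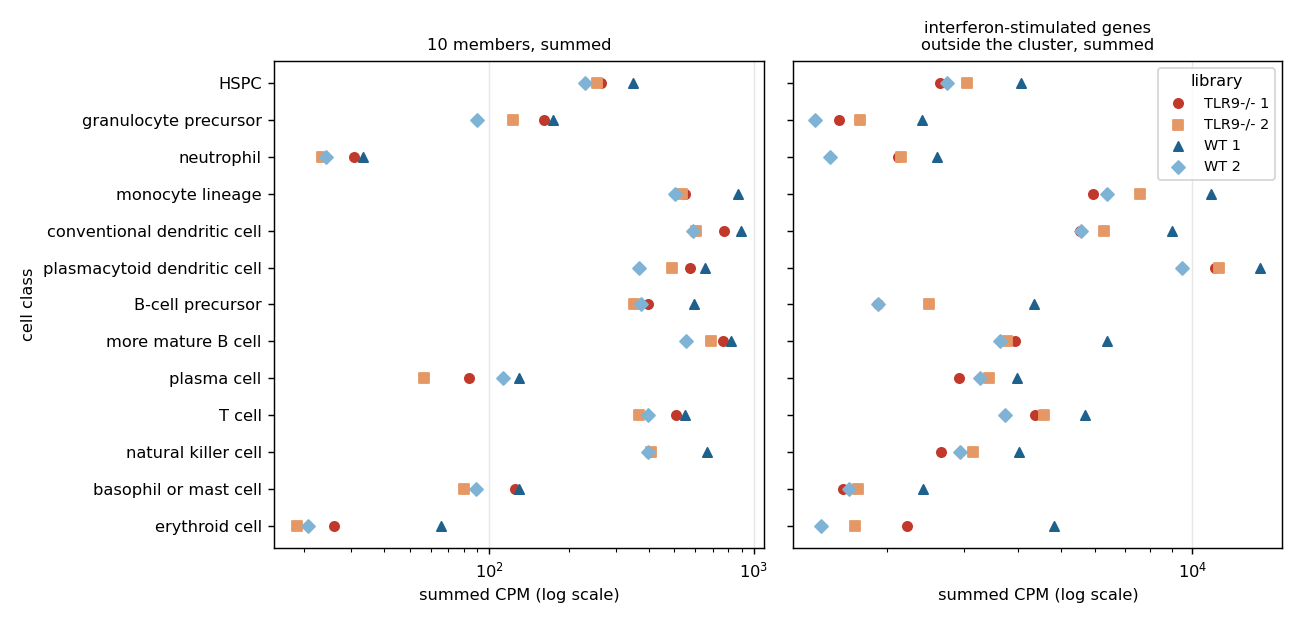
Points give, per library, the summed CPM (log scale) of the 10 members (left) and of the interferon-stimulated genes outside the cluster (right) in each of 13 cell classes. WT 1, the dark blue triangles, lies furthest to the right in every class of both panels.

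Without WT 1, 51 of 66 member tests in classes had a log2 fold change above 0, against 23 of 65 with all 4 libraries and 8 of 74 without WT 2. Without WT 2, Ifi213 had a log2 fold change of −1.99 in B-cell precursors, −1.69 in the monocyte lineage and −2.63 in conventional dendritic cells. That of Ifi207 was −1.30 in conventional and −1.23 in plasmacytoid dendritic cells, and that of Ifi209 −0.85 in B-cell precursors and −2.29 in erythroid cells. Ifi205 had −2.17 in the monocyte lineage and Mndal −1.47 in erythroid cells. These class values were selected by their low adjusted p in the fit without WT 2. In that fit the lone WT library is assumed to vary like the TLR9-/- pair, and calls are therefore not given. Over all cells, the log2 fold change of each of the 9 members changed sign between the fits that left out 1 library. Ifi204, Ifi205, Ifi211 and Aim2 in the monocyte lineage had a log2 fold change below 0 whichever library was left out, between −1.11 and −0.50 for Ifi204.

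**Figure D5:**
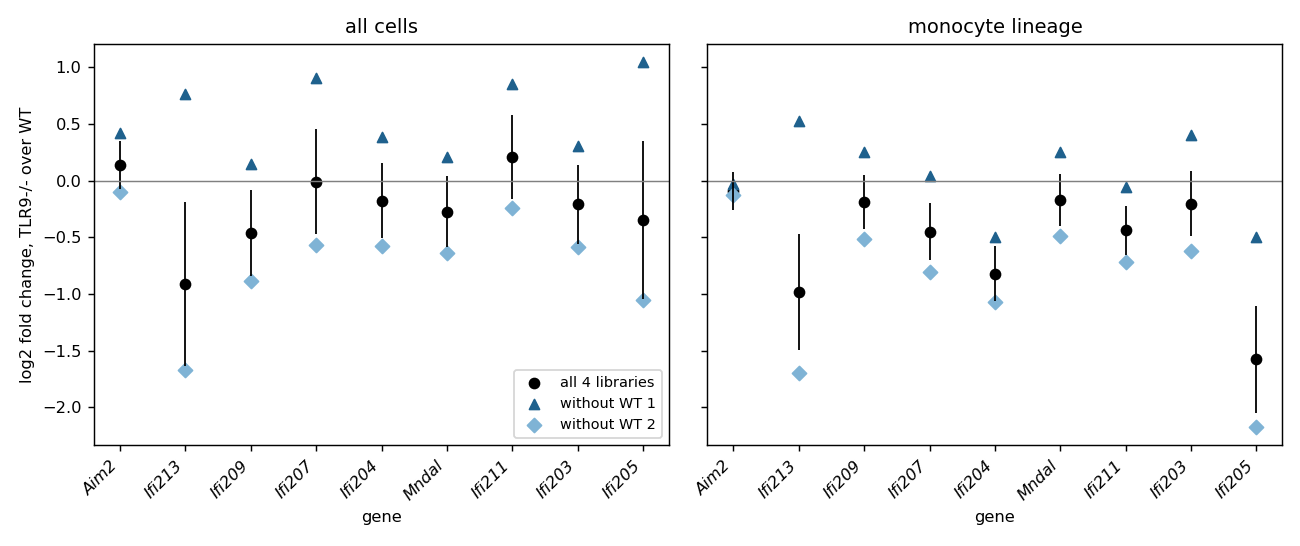
Log2 fold changes of TLR9-/- over WT for 9 members over all cells (left) and in the monocyte lineage (right), with all 4 libraries (black, bars are standard errors), without WT 1 (dark triangles) and without WT 2 (light diamonds). Over all cells Ifi213 lies at −0.91, 0.76 and −1.67 in this order, and in the monocyte lineage Ifi204 stays below 0 in all 3.

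The genotype difference was also compared between classes. Of 9 members tested between the monocyte lineage and more mature B cells, 9 between neutrophils and the monocyte lineage and 5 between T cells and more mature B cells, 0 passed and 2 had an unadjusted p under 0.05 (edgeR's quasi-likelihood test of the class by genotype term, adjusted over all genes and pairs). Of all genes tested, 50 of 10520, 22 of 10710 and 7 of 9405 passed in these pairs, in the same order. The lowest adjusted p of a member was 0.316, for Ifi213, whose log2 fold change was 0.83 lower in the monocyte lineage than in more mature B cells (standard error 0.26).

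Genes of the other pathway lists passed the test in few places. Over all genes, 311 of 105387 tests in the classes passed in edgeR. A list of 11 inflammasome genes held the partners of Aim2 together with other sensors, such as Nlrp3. Its 75 tests in classes gave 0 higher and 2 lower calls, both of Casp4. This is the caspase that responds to cytosolic lipopolysaccharide and cleaves gasdermin D, and not the one that Aim2 activates. In B-cell precursors Casp4 had 2.75 and 2.11 CPM in TLR9-/- cells against 13.4 and 8.14 CPM in WT cells. The log2 fold change was −2.09 (its standard error 0.37, with adjusted p = 0.0400 by edgeR's quasi-likelihood test). In granulocyte precursors Casp4 had 2.17 and 2.65 CPM against 9.46 and 10.4 CPM. The log2 fold change was −2.03 (standard error 0.28, with adjusted p = 0.0189 by the same edgeR test), and between −2.19 and −1.91 with 1 library left out. Both WT libraries were thus above both TLR9-/- libraries, unlike for most members. Of the interferon-stimulated genes, 451 tests gave 0 higher and 1 lower call, Oasl2, an interferon-induced gene of the oligoadenylate synthetase family. An unadjusted p under 0.05 in edgeR's quasi-likelihood test was found in 66 of the 451, against 6.83% of the class tests of all genes. The log2 fold change was below 0 in 346 of the 451 and above 0 in 105, and WT 1 was the highest library in 326. In neutrophils Oasl2 had 1.496 and 0.867 CPM in TLR9-/- cells against 21.2 and 13.5 CPM in WT cells, and the log2 fold change was −3.91 (standard error 0.39, with adjusted p = 0.00132 by the same edgeR test). DESeq2 called Oasl2 also in granulocyte precursors (log2 fold change −3.996) and, over all cells, Oasl2 (−2.21), Isg20 (−0.95) and Cmpk2 (−0.95), together with Casp4 (−1.71). These were 3 of 50 interferon-stimulated genes and 1 inflammasome gene, while DESeq2 called 6.50% of all genes over all cells.

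The remaining lists had 0 calls in the classes by edgeR and by DESeq2. They comprised 21 cytosolic nucleic acid sensors and adaptors in 219 tests (7 with an unadjusted p under 0.05), 9 kinases and factors downstream of Sting in 101 (3), 10 nucleases that limit cytosolic DNA in 97 (5) and 6 endosomal Toll-like receptors with their chaperone in 25 (4). The last list holds Tlr9, and its 4 included Tlr9 itself in the monocyte lineage, more mature B cells and plasmacytoid dendritic cells. Over all cells the median log2 fold change was −0.16 for the sensors and adaptors, −0.06 for the factors downstream of Sting, −0.04 for the nucleases and −0.33 for the interferon-stimulated genes, against −0.02 for all genes tested. Over all cells edgeR called 0 genes of these lists. An unadjusted p under 0.05 was found there for 4 sensors and adaptors and for 1 gene of each of the other 3 lists, against 17.1% of all genes. DESeq2 called Tlr9 itself, Xrcc6 (log2 fold change −0.66), Tmem173 (0.57) and Dnase1l3 (−1.58), against 6.50% of all genes. Dnase1l3 encodes a nuclease of extracellular and vesicle-borne DNA. Mb21d1, which encodes cGAS, had its highest levels in conventional dendritic cells (27.0 ± 0.365 CPM) and the monocyte lineage (26.02 ± 2.72 CPM). Tmem173, which encodes Sting, was highest in plasmacytoid (105 ± 17.4 CPM) and conventional dendritic cells (91.2 ± 11.6 CPM). It stood lower, at 40.6 ± 5.75 CPM, in the monocyte lineage, where Ifi204 had its peak, and at 3.25 ± 0.286 CPM in neutrophils.

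Genes beside the members on the chromosome were examined because a stretch of chromosome shared with another strain would reach past the family. Within 2 Mb of the outermost members lay 90 further genes of the count tables, Ifi206, Ifi208 and Ifi214 among them. Over all cells 48 were tested and 0 passed in edgeR (14 with an unadjusted p under 0.05, against 17.1% of all genes, and 5 called by DESeq2, against 6.50% of all genes), with a median log2 fold change of −0.14. WT 1 was the highest library in 25 of the 48 and in 27.2% of all genes. In the classes these genes entered 294 tests, of which 0 passed in either tool and 22 had an unadjusted p under 0.05. Genotypes of the mice at this locus were not measured here.

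The genes whose pattern was most like that of a member were found by Pearson r of log2(CPM + 1) over the same 52 sums, among 9548 genes with a mean of at least 5 CPM and leaving out the members. For Ifi204 they were Ms4a8a (r = 0.84), Clec4a3 (0.84) and Lrrc25 (0.79), and for Ifi211 Clec4a1 (0.75), Clec4a3 (0.74) and Ms4a8a (0.73). For Ifi207 they were Rnd3 (0.87), Cd68 (0.86) and Psap (0.86), and for Ifi205 Cd300lg (0.79), Pid1 (0.78) and Sult1a1 (0.78). For Ifi213 they were Lpxn (0.82), Phf11b (0.81) and Ifi208 (0.80), and for Aim2 Ly6e (0.90), Cd48 (0.90) and Tmem192 (0.88). For Mndal they were H2-M3 (0.92), Tmsb10 (0.92) and Psmb10 (0.89), for Ifi203 Ly9 (0.92), Psmb10 (0.89) and Tmsb10 (0.88), and for Ifi209 Gm9844 (0.88), Tmsb10 (0.87) and Camk2d (0.83). The sums share libraries and classes, and the values are a description.

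The near copies within the family limit how firmly reads are assigned to 1 member. Of the first 500 stretches of 90 bases in the longest coding transcript of each gene, 70.2% of those of Ifi204 and 52.8% of those of Ifi211 also occurred in a transcript of another gene. The shares were 23.2% for Ifi213, 18.2% for Ifi203, 6.4% for Ifi209, 3.8% for Ifi207 and 1.6% for Mndal, and 0% for Aim2, Ifi202b and Ifi205. A shorter transcript of Mndal shared 18.2%, most with Ifi203. Reads that match several genes equally are not counted by Cell Ranger. The counts of Ifi204 and Ifi211 may thus rest on less of their 5′ end than those of Aim2. The paired reads that the paper reports are longer than these stretches, so that a read can be unique where a stretch is not.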

How the data were processed

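Bone marrow mononuclear cells of 2 TLR9-/- and 2 WT mice were profiled by 5′ single-cell RNA sequencing. The deposited count matrices hold UMIs per gene and cell, which the authors made with Cell Ranger on mm10 (GRCm38). STAR and Seurat 2.3.4 are also named in the submitters' processing notes, and the deposited counts used here were not normalized. Cells with at least 200 and at most 10000 genes and at most 10% mitochondrial UMIs were kept, the limit that the methods print as 0.10% being read as a fraction of the UMIs. With no correction between libraries, cells were clustered from 2000 variable genes, excluding the members and their related genes, with 30 principal components, 20 neighbours and the Leiden method at resolution 1 (leidenalg 0.10.2), which gave 32 clusters. A cluster took the name of the class with most markers among its 10 leading genes. A cluster stayed unnamed when 40% of its cells were marked as doublets. It also stayed unnamed when the marker list with the highest mean z score named another lineage and its own score was below 2. These limits were set after the clusters were seen. They left 8 clusters unnamed, with 5.33% and 4.47% of the TLR9-/- cells and 6.17% and 4.69% of the WT cells. The HSPC cluster was kept, at a score of 3.09, although the megakaryocyte list scored highest in it. No class of megakaryocytes was formed at resolution 1, while at Leiden resolution 2 a cluster of 169 cells took that name. Both clusters of the monocyte lineage were named monocyte or macrophage, and monocyte precursors had no cluster of their own at resolution 1. The granulocyte precursor class was 1 cluster of 2097 cells, with 7 granulocyte precursor and 5 monocyte precursor markers among its 10 leading genes, so that it may include monocyte precursors. At Leiden resolution 2 a cluster of 989 cells was named monocyte precursor and joined to the monocyte lineage. Scrublet's procedure marked between 2.53% and 3.92% of the cells per library as doublets, which were kept.

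UMIs were summed per library and class and compared by edgeR 4.0.16 (quasi-likelihood test, TMM scaling, filterByExpr), with DESeq2 1.42.0 as an alternative. Nothing in the labels says whether the mice came from different litters, and p values rest on 2 mice per genotype. Those 2 mice were profiled in different experiments. Within a genotype, a difference between mice thus cannot be told apart from a difference between experiments. The scripts were tested on simulated data. Every member was described in every class, and other genes were named where they passed in a listed pathway, lay within 2 Mb or had the most like pattern. Members and lists were chosen with earlier results of these data known. Positions and transcripts came from GENCODE vM21, and promoters from RefSeq (GRCm38.p6). Promoter windows were compared by local alignment in Biopython 1.88 (match 2, mismatch −3, gap opening −5, gap extension −2).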

Additional observations from a re-analysis of the deposited data

How the results depend on the processing

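The counts of calls depended on the processing. Over all cells 38 genes passed, against 851 in DESeq2, 605 without the filter on low counts and 1165 with the library number as a replicate block, and between 58 and 88 with 1 library left out. In the classes together 311 tests passed, against 1659 without the filter and 1980 with the block, and between 591 and 1085 with 1 library left out. Of the members, 0 class tests passed in the fit with all libraries, 2 without the filter (Ifi213 in B-cell precursors and Ifi209 in erythroid cells), 3 with the block (Ifi213 in B-cell precursors and Ifi204 and Ifi205 in the monocyte lineage) and between 0 and 9 with 1 library left out. Over all cells 0 members passed, or 1 (Ifi213) without WT 2, so that the range was 0 to 1. A log2 fold change above 0 was found in 23 of 65 member class tests, in 36 of 114 without the filter, and in between 8 and 51 with 1 library left out. Leaving out marked doublets, a mitochondrial limit of 5% and Leiden resolution 2 moved none of these counts by over 1.5 times. The causes were not tested. The numbers in the labels are not stated to mark the experiments. The deviations of the libraries numbered 1 had a correlation of 0.36 over 14194 genes. An unnamed cluster led by Igkv1-117 and Jchain had 177 cells in TLR9-/- 1 and 129 in WT 1, against 4 in TLR9-/- 2 and 4 in WT 2. TLR9-/- 1 and WT 1 shared 185 barcodes, the most of any pair, and TLR9-/- 2 and WT 2 shared 112, the fewest. Whether the numbers mark the experiments was not tested.

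Ifi207 over all cells, near 0 at −0.01, turned to 0.0088 without the filter, 0.15 with the block and 0.00065 with the mitochondrial limit of 5%. With 1 library left out the log2 fold change over all cells ranged from −0.098 to 0.42 for Aim2, −0.59 to 0.31 for Ifi203, −0.58 to 0.38 for Ifi204, −1.06 to 1.04 for Ifi205, −0.57 to 0.91 for Ifi207, −0.88 to 0.15 for Ifi209, −0.24 to 0.86 for Ifi211, −1.67 to 0.76 for Ifi213 and −0.63 to 0.21 for Mndal. In the monocyte lineage it ranged from −0.62 to 0.41 for Ifi203, −0.80 to 0.043 for Ifi207, −0.51 to 0.26 for Ifi209, −1.69 to 0.52 for Ifi213 and −0.49 to 0.26 for Mndal. It ranged from −1.23 to 2.23 for Ifi207 in plasmacytoid dendritic cells, −1.99 to 0.34 for Ifi213 in B-cell precursors and −2.29 to 0.24 for Ifi209 in erythroid cells. The small number of libraries and the few UMIs in rare classes limit what could be detected.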

Other observations

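The 3 related genes of the cluster outside the family list, Ifi206, Ifi208 and Ifi214, were read mainly in lymphoid cells. Ifi206 stood at 35.3 ± 8.12 CPM in T cells and 19.8 ± 7.17 CPM in more mature B cells (SD, n = 4 libraries), and Ifi208 at 40.5 ± 15.9 CPM and 15.3 ± 5.57 CPM. Ifi214 was highest in more mature B cells (27.9 ± 7.18 CPM) and stood at 15.3 ± 9.73 CPM in B-cell precursors. Over all cells 0 of the 3 passed in edgeR's quasi-likelihood test or in DESeq2, and 1, Ifi214, had an unadjusted p under 0.05 in edgeR, against 17.1% of all genes. In the classes 0 of their 12 tests passed in either tool. An unadjusted p under 0.05 in edgeR was found in 3 of the 12, against 6.83% of the class tests of all genes. Ifi214 had the largest difference over all cells, from 3.54 and 2.56 CPM in TLR9-/- cells to 11.9 and 4.14 CPM in WT cells. Its log2 fold change was −1.39 (standard error 0.52, with adjusted p = 0.275 by edgeR).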
